A study of Mus musculus with 39 samples.

Results

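The change in gene expression that went with anti-PD-1 was compared between 2 arms of faecal microbiota transplantation (FMT), in 2 sets of libraries from MCA-205 tumours. Wild-type C57BL/6 mice were given stool of human volunteers, under CZA or CZA+DAV132 for 6 days. CZA stands in the labels as an abbreviation only, and DAV132 is named there as a colon-targeted adsorbent. MCA-205 fibrosarcoma cells were placed under the skin 2 weeks later. Once tumours measured 25 to 35 mm2, 250 µg of anti-PD-1 (clone RMP1-14) or isotype antibody (clone 2A3) was injected 4 times at intervals of 3 days. Tumours were taken 2 days after the last injection. All mice therefore carried a transplant and a tumour, and no arm lacked CZA.

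For each gene the interaction was computed on the log2(TPM + 1) scale as the anti-PD-1 minus isotype difference in the CZA+DAV132 arm, minus the same difference in the CZA arm. TPM is by definition a length-corrected share of transcripts with the same total in each library, so it keeps no sequencing depth. The listed genes summed to between 956720 TPM (CD8 library 17, CZA+DAV132 anti-PD-1) and 991092 TPM (bulk tumour library T983, CZA isotype). A negative interaction means that anti-PD-1 went with a lower level, or with less of a rise, in the CZA+DAV132 arm than in the CZA arm. All 39 of the 39 libraries entered. The CD8 set held 20 libraries, made from CD8+ T cells that had been sorted out of tumours, 5 in each of the 4 groups. The other set held 19 libraries labelled bulk tumour, 5 in each group except 4 in the CZA+DAV132 isotype group. The tables listed 28023 genes, of which 12942 were tested in the CD8 set, 13326 in the bulk tumour set and 12126 in both. The 2 sets came from separate runs of the experiment with the same transplant material, so each has its own controls. Whether each library is a separate mouse is not in the labels, and the p-values measure the spread between libraries only. The stool differs between the arms and is not replicated, and bulk tumour libraries carry numbers T982 to T991 in the CZA arm and T021 to T030 in the other. Donor stool, numbering and DAV132 therefore cannot be told apart.

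PD-1 is an inhibitory receptor that damps signalling from the T cell antigen receptor, and antibodies that block it release that brake. Antigen receptor signalling switches on immediate early genes within minutes, among them AP-1 transcription factors such as FOSL2 and orphan nuclear receptors such as NR4A1, together with feedback inhibitors such as TNFAIP3 (A20), which ends NF-κB signalling. Transcripts of these genes are short-lived, so their level follows recent stimulation. They are also known to respond to tissue handling and cell sorting.

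The libraries differed in ways that touch the contrast. Transcripts of 17 entries rich in satellite or simple repeats took from 11.6% to 69.1% of TPM in CD8 libraries given anti-PD-1 in the CZA+DAV132 arm, against 0.337% to 25.2% over its other groups. In the bulk tumour set the share was under 1% except 50.4% in library T026 (CZA+DAV132, anti-PD-1) and 13.7% in T985 of the CZA isotype group. Because TPM has a fixed total, a large share lowers all other genes in that library. In the bulk tumour set, genes listed at 0 made up 9.2% to 17.9% of tested genes in the CZA isotype libraries and 3.6% to 11.8% over the others. T cell transcripts were abundant in both sets: 18 T cell markers summed to 4200 to 18250 TPM in the CD8 set and to 4889 to 16010 TPM in the bulk tumour set. In the same order, 20 markers of fibroblasts and fibrosarcoma summed to 857.1 to 4544 TPM and to 1397 to 4468 TPM. Cd8a was at 86.7 to 402 TPM and at 141 to 423 TPM, and Cd4 at 0.418 to 2.32 TPM and at 0.116 to 6.58 TPM. By these markers the set labelled bulk tumour resembled the sorted CD8 set, and its label is used here as given. Macrophage markers, 22 in number, summed to 630.4 to 2000 TPM in CZA+DAV132 anti-PD-1 libraries of the sorted CD8 set and to 1623 to 6737 TPM in its other groups, and to 600.7 to 1256 TPM against 1147 to 2414 TPM in the bulk tumour set. Endothelial markers went the other way, with median sums of 1104 TPM against 215.2 to 462.2 TPM, and 2517 TPM against 916.1 to 1322 TPM. Erythroid markers did too, at 344 TPM against 105.3 to 209.7 TPM, and 108.2 TPM against 16.99 to 55.65 TPM. For both, the ranges of single libraries overlapped between groups. The part of these markers in the results was not tested. In bulk samples, fewer cells of a type and less RNA per cell cannot be told apart.

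**Figure D1:**
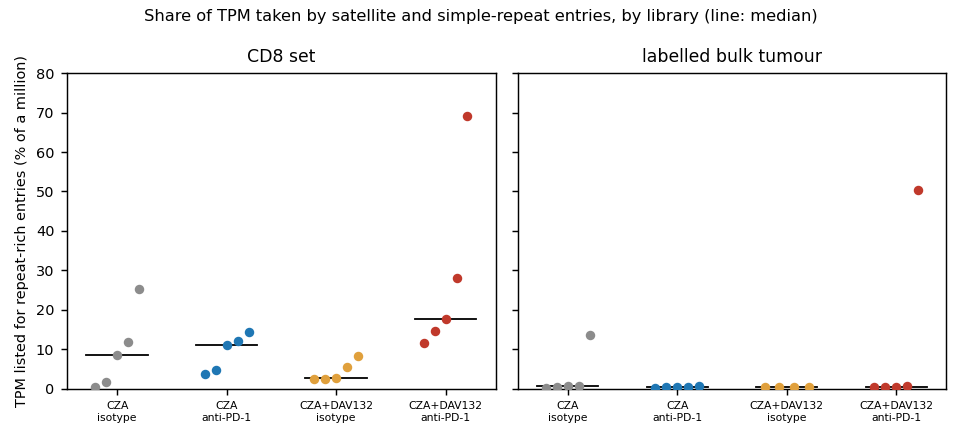
Share of TPM listed for 17 repeat-rich entries (percent, y axis) in each library (points, sorted within a group) of the 4 groups of each set, with group medians as lines. The highest libraries, at 69.1% and 50.4%, are anti-PD-1 libraries of the CZA+DAV132 arm.

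Across genes the interaction leaned negative in both sets. Its median over all genes tested in both was -0.38 in the CD8 set and -0.48 in the bulk tumour set. Of 12126 genes, 7366 were negative in both sets, 1465 positive in both and 3295 of opposite sign, so 72.8% had the same sign. After subtracting each set's median the share was 61.3%. Median-ratio scaling, which sets the middle gene of each library level, moved the medians to -0.01 and -0.10 and the same-sign share to 60.7%, so the common negative lean depended on the scaling. Rescaled without the repeat entries the medians were 0.05 and -0.26, and without CD8 libraries 16 and 19 and T026, the 3 with the largest repeat shares in the CZA+DAV132 anti-PD-1 groups, they were 0.00 and -0.35. Over genes, which are not independent and share length and composition in both sets, Pearson's r between the 2 interactions was 0.38 and Spearman's rho 0.33.

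Large interactions pointed the same way more often than opposite ways, but whether lower or higher prevailed turned with the scaling. At a size of 1 or more on the log2 scale, 380 genes were lower and 158 higher in both sets, and 46 had opposite signs. The 380 genes were 42% of those so low in the CD8 set and 11.8% of those so low in the bulk tumour set, and the 158 were 31.4% and 22.8% of those so high. The lower and higher counts became 96 and 373 with median-ratio scaling, 99 and 301 rescaled without repeat entries, and 91 and 127 without the 3 repeat-rich libraries. At an unadjusted limma p under 0.05 in each set, 322 genes (2.66% of those tested) were lower in both and 61 (0.503%) higher in both, against 4 of opposite sign. The 322 genes were 21.5% of the genes lower at that level in the CD8 set and 27.4% of those in the bulk tumour set. Here the counts became 106 lower and 170 higher with median-ratio scaling, 112 and 116 rescaled without repeat entries, and 94 and 34 without the 3 libraries.

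**Figure D2:**
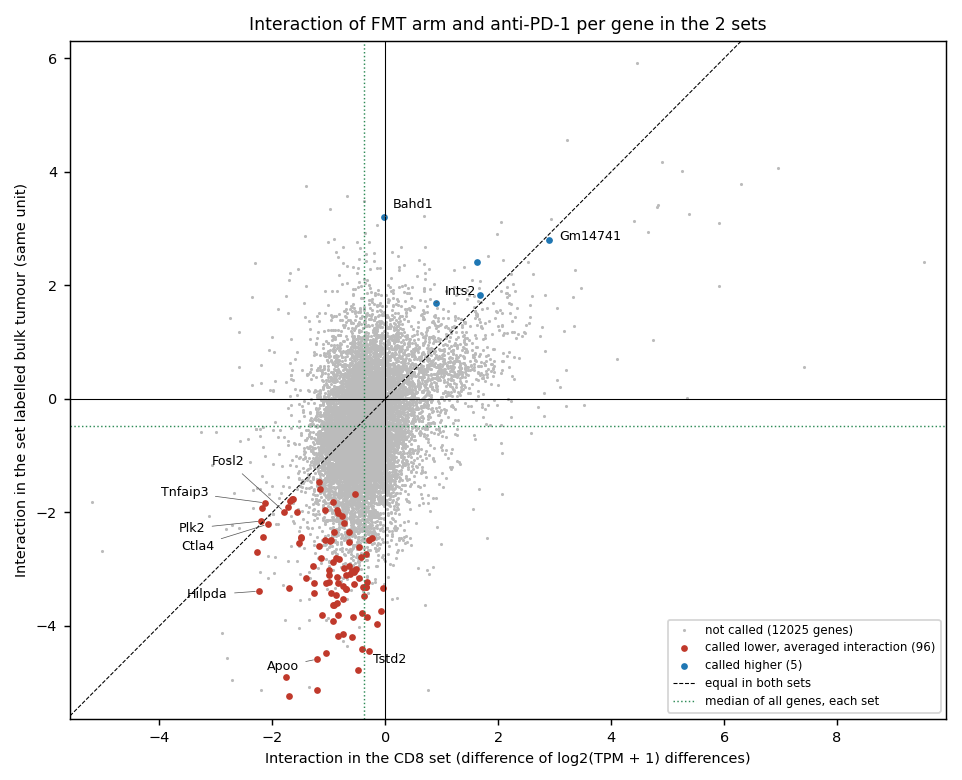
Interaction of each of 12126 genes in the CD8 set (x axis) and in the set labelled bulk tumour (y axis), both on the log2(TPM + 1) scale, with the genes called in the fit over both sets in colour. Called genes lie mostly low on the y axis, and a smaller group, with Fosl2, Tnfaip3, Plk2 and Ctla4, lies near the line of equal size.

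Within a single set few genes passed. In the CD8 set none of 12942 genes was called with limma at a Benjamini-Hochberg adjusted p under 0.05 (0%), while 2036 had an unadjusted p under 0.05. In the bulk tumour set 6 of 13326 were called, all lower (0.045%): Rab4a, Tstd2, Grhpr, Mpv17l2, Rgs8 and D030056L22Rik. A fit over both sets, which averages the 2 interactions equally and weights the sets only for their spread, called 96 genes lower (0.792% of 12126) and 5 higher (0.0412%). All 96 were negative in both sets, which an average makes likely. The average leaned on the bulk tumour set: 93 of the 96 were larger there, and the median of the 96 was -0.87 in the CD8 set and -3.07 in the bulk tumour set. The 96 genes had an unadjusted p under 0.05 in the bulk tumour set in all cases and in the CD8 set in 52.

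The called genes fell into different patterns over the groups. For 14 of the 96 the 2 interactions lay within 0.5 of each other on the log2 scale: Bhlhe40, Btg2, Coa7, Ctla4, Dusp5, Fosl2, Nr4a1, Plk2, Ppp1r15a, Selenok, Tgif1, Tnfaip3, Gm5453 and Gm8430. For 78 the 2 interactions were more than 1 apart. Of the 96, 76 in the bulk tumour set had an anti-PD-1 minus isotype difference above 1 in the CZA arm, and 1 in the CD8 set had. That difference enters the interaction with a minus sign, so choosing genes for a negative interaction favours a high one. The same counts over all genes are not given here. The median anti-PD-1 difference of the 96 in the CZA+DAV132 arm was -0.81 in the CD8 set and -1.16 in the bulk tumour set. In the CZA arm it was 0.07 in the CD8 set and 1.93 in the bulk tumour set. Over all genes tested in both sets, these medians were -0.34 and -0.18 in the CZA+DAV132 arm and -0.01 and 0.28 in the CZA arm.

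Of the 14 genes with near-equal interactions, 4 belong to the immediate early and AP-1 list (Btg2, Dusp5, Fosl2 and Nr4a1) and Tnfaip3 to the NF-κB list. These lists held 25 and 20 of the 12126 genes tested in both sets. The 14 were picked by their values, and the lists with earlier results of these data known. The bases before the start sites of 4 of these 5 genes are printed here, because promoters of this class are known for binding sites of AP-1, CREB and NF-κB. The sequences are the 250 bases before the RefSeq start (GRCm38.p6), on the gene's strand and 5′ to 3′, with capitals for matches on either strand to TGANTCA (AP-1), TGACGTCA (the cyclic AMP response element) or GGNNTTTCC (a κB-like sequence). They lie at chr5:32136222-32136471 (plus strand) for Fosl2, chr10:19015411-19015660 (minus) for Tnfaip3, chr15:101266596-101266845 (plus) for Nr4a1 and chr1:134079156-134079405 (minus) for Btg2. GENCODE M21 also holds transcripts of Fosl2, Tnfaip3 and Nr4a1 that start further upstream.
Fosl2: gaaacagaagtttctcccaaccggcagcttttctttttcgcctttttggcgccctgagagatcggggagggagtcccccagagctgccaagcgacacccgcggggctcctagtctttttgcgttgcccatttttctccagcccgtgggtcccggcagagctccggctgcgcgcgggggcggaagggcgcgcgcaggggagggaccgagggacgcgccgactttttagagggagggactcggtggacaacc
Tnfaip3: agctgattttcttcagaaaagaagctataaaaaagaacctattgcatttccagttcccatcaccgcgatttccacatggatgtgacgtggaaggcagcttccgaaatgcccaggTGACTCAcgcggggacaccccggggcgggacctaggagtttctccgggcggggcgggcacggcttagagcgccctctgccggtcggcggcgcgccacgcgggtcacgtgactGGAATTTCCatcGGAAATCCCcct
Nr4a1: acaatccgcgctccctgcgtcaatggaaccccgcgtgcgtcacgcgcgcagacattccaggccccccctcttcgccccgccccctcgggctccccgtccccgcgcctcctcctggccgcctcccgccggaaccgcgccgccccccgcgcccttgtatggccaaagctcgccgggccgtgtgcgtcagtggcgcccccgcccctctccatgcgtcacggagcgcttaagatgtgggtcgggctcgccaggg
Btg2: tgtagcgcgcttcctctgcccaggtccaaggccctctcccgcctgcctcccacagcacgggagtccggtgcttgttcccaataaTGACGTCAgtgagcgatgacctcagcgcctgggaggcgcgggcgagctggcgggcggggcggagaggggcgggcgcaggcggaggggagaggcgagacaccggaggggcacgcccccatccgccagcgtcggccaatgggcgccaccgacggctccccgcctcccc
Tnfaip3 held an AP-1 match 136 to 130 bases before the start and κB-like matches at 24 to 16 and at 12 to 4 bases before it. Btg2 held a cyclic AMP element 166 to 159 bases before the start. The Fosl2 and Nr4a1 windows held none of these letters. Among 27025 genes with such a window, 6.85% held the AP-1 letters, 1.6% the cyclic AMP element and 4.82% the κB-like letters. Of the 72 genes called lower that had a window, 5, 7 and 5 held them (6.94%, 9.72% and 6.94%). Of the 22 immediate early and AP-1 genes with a window, 0, 2 and 2 held them. These are counts of letters, with no test.

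Fosl2, which encodes an AP-1 subunit, was lowest in both sets where anti-PD-1 was given in the CZA+DAV132 arm. In the CD8 set it was at 10.3, 13.2, 13.6, 15.5 and 18.1 TPM in the CZA isotype libraries, 16.5, 16.7, 17.2, 21 and 29.5 TPM with anti-PD-1 in the CZA arm, 10.9, 13.1, 14.2, 23.7 and 25.7 TPM with isotype in the CZA+DAV132 arm, and 2.59, 6.32, 6.91, 7.18 and 9.24 TPM with anti-PD-1 in that arm. Bulk tumour libraries in the same groups held 20.6, 20.8, 23, 29.3 and 73 TPM, then 23.1, 27.9, 32.8, 36.7 and 61.3 TPM, then 30.9, 32.4, 35.4 and 69.6 TPM, then 7.01, 8.26, 12.9, 14.1 and 15 TPM. In each set every CZA+DAV132 anti-PD-1 library lay below every other library. The Fosl2 interaction on the log2(TPM + 1) scale was -1.79 ± 0.40 (SE, n = 20) in the CD8 set and -1.99 ± 0.57 (SE, n = 19) in the bulk tumour set. The averaged interaction was -1.89 ± 0.38 (limma adjusted p = 0.014). Neither set called Fosl2 alone, with adjusted p of 0.29 in each. With median-ratio scaling the average was -1.47 (0.094), and without the 3 repeat-rich libraries -1.66 (0.078), both short of the threshold. Fosl2 lies at chr5:32135801-32157842 and Tnfaip3 at chr10:19000910-19015657 (GENCODE M21, GRCm38).

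Tnfaip3, the deubiquitinating brake on NF-κB, showed the same order. CD8 libraries held 39.1, 50.2, 56.6, 57.1 and 65.8 TPM in the CZA isotype group, 59.8, 62, 63.1, 70.5 and 85.8 TPM in the CZA anti-PD-1 group, 39.6, 42.8, 62.2, 75.9 and 121 TPM in the CZA+DAV132 isotype group, and 7.39, 8.7, 25.6, 26.3 and 36.5 TPM with anti-PD-1 in that arm. The bulk tumour groups in that order held 85.9, 87.2, 130, 144 and 146 TPM, then 64.5, 88, 91.7, 91.9 and 123 TPM, then 75.8, 110, 166 and 204 TPM, then 11, 22.7, 37.3, 40.6 and 41.5 TPM. No CZA+DAV132 anti-PD-1 library of either set overlapped another group. The Tnfaip3 averaged interaction was -1.98 ± 0.45 (log2, limma adjusted p = 0.0295), from -2.13 ± 0.51 in the CD8 set and -1.83 ± 0.52 in the bulk tumour set. With median-ratio scaling it was -1.54 (0.129). The 2 lowest CD8 values of Tnfaip3, 7.39 and 8.7 TPM, came from libraries 16 and 19, which held the largest repeat shares of the group.

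As deposited, the group that most often lay below all other libraries was CZA+DAV132 anti-PD-1. In the CD8 set 105 genes (0.811% of those tested) had all 5 of its libraries below all 15 others, against 0 to 2 genes for the other groups. For bulk tumour, 36 genes (0.27%) had it lowest and 35 (0.263%) had the CZA isotype group lowest, against 0 and 1 for the other groups. Rescaled without repeat entries these bulk tumour counts were 31 and 41. Genes with CZA+DAV132 anti-PD-1 highest numbered 4 in the CD8 set and 3 in the bulk tumour set as deposited, 37 and 14 with median-ratio scaling, 23 and 22 rescaled without repeat entries, and 147 and 29 without the 3 repeat-rich libraries. The genes lowest in CZA+DAV132 anti-PD-1 in both sets were 5: Fosl2, Tnfaip3, Cxcr4, Rpl9 and Gm8430, which is 4.76% of the 105 and 13.9% of the 36. Cxcr4 encodes a chemokine receptor that retains cells in tissue, and Rpl9 a ribosomal protein. Gm8430 is a predicted gene, whose reads may be shared with a near-identical copy. The averaged interaction was -1.13 ± 0.45 for Cxcr4 (limma adjusted p = 0.158) and -0.70 ± 0.35 for Rpl9 (0.238), neither called, and -1.32 ± 0.33 for Gm8430 (0.0468). No gene was shared between the sets for any other group in the lowest or highest place. With median-ratio scaling, added after the data were seen, the genes lowest in both sets were 8 others: Cox7a2, Eef1a1, Ivns1abp, Ppp2r5c, Psme1, Rpl10a-ps1, Rpl4 and Rps13-ps2. Rescaled without repeat entries they were Ndufs6 and Rpl9, and without the 3 repeat-rich libraries they were the same 5 as deposited. No gene had CZA+DAV132 anti-PD-1 highest in both sets as deposited. With median-ratio scaling Rpl17-ps5 did, and Dido1 and Rpl17-ps5 did when rescaled without repeat entries and without the 3 libraries.

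The list of immediate early and AP-1 genes had the most negative median of all lists in both sets. Of 27 members 25 passed the filter in both sets, and 24 were negative in both, with Egr2 of opposite sign. The median interaction was -1.24 in the CD8 set and -1.67 in the bulk tumour set, against -0.38 and -0.48 over all genes. In 10 of the 25 the unadjusted p was under 0.05 in both sets, beside 2.66% of all genes. The averaged fit called 4 lower, beside 0.792% of all genes: Fosl2, Btg2, Nr4a1 and Dusp5. With median-ratio scaling the list's medians were -0.82 and -1.24, beside -0.01 and -0.10 for all genes, and without the 3 repeat-rich libraries they were -0.87 and -1.47. None of the 4 was called with median-ratio scaling, at adjusted p of 0.094 (Fosl2), 0.052 (Btg2), 0.155 (Nr4a1) and 0.205 (Dusp5), or without the 3 libraries, at 0.078, 0.063, 0.168 and 0.169.

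A single isotype library of the CZA+DAV132 arm was high for such genes in each set. Fos, an AP-1 subunit, was at 324 TPM in CD8 library 14 and at 49.2 to 86.2 TPM in the other 4 of its group, and at 370 TPM in T028 against 49.1 to 170 TPM. Dusp1 was at 299 TPM in library 14 against 44.1 to 84.9 TPM, and at 312 TPM in T028 against 25.9 to 60.4 TPM. Egr1 and Atf3 were also highest there, at 44.7 and 31.7 TPM in library 14 and 54.4 and 43 TPM in T028. Without library 14 the list's CD8 median was -0.84, beside -0.37 for all genes, and without T028 its bulk tumour median was -1.20, beside -0.46.

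**Figure D3:**
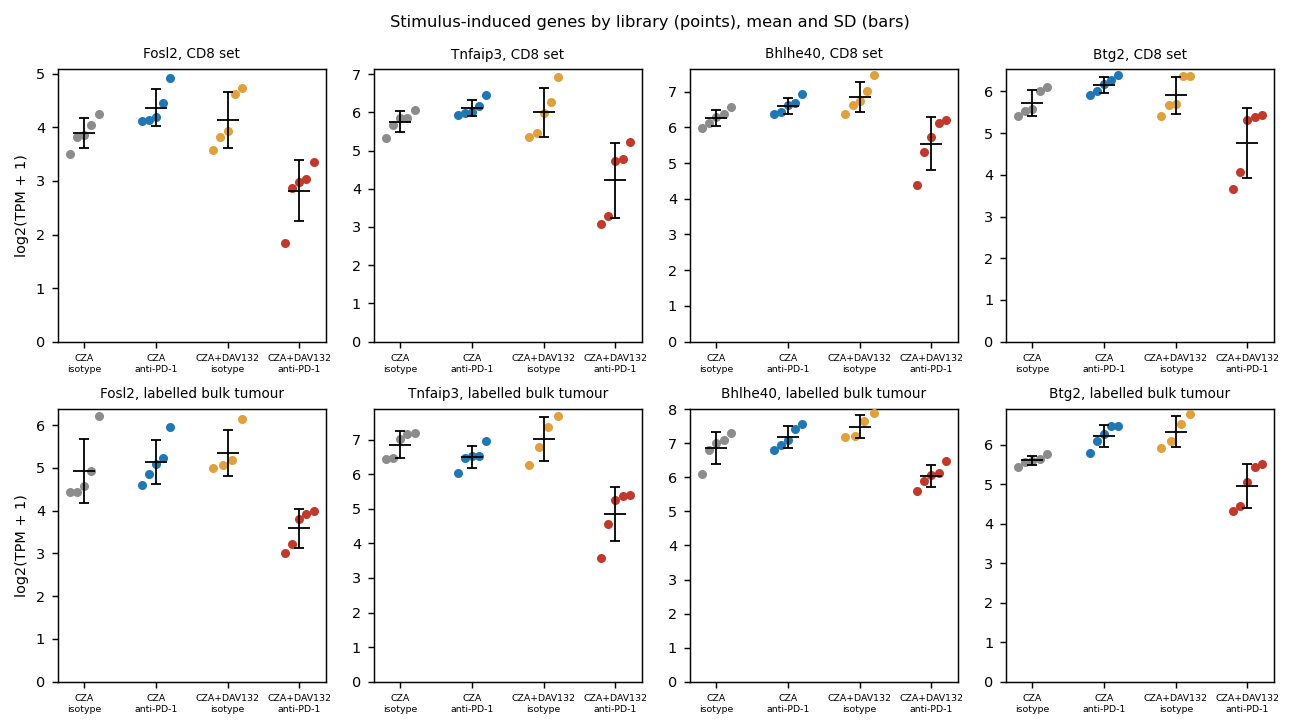
Levels of Fosl2, Tnfaip3, Bhlhe40 and Btg2 on the log2(TPM + 1) scale in each library (points, sorted within a group) of the CD8 set (top) and the set labelled bulk tumour (bottom), with the mean and SD of each group. The red CZA+DAV132 anti-PD-1 points lie below all others for Fosl2 and Tnfaip3 and overlap other groups for Bhlhe40 and Btg2.

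Btg2, an antiproliferative gene induced by p53 and by mitogens, was at 11.6, 15.7, 38.6, 40.8 and 42 TPM in CD8 libraries given anti-PD-1 in the CZA+DAV132 arm. The other groups of the CD8 set ranged from 41.3 to 83 TPM, so the ranges touched. That group held in bulk tumour 19.1, 20.8, 32.6, 42.4 and 45.1 TPM, and the other groups ranged from 42.7 to 109 TPM. The averaged Btg2 interaction was -1.78 ± 0.38 (log2, limma adjusted p = 0.0164), or -1.33 (0.052) with median-ratio scaling.

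Further induced genes were called, among them Nr4a1, Bhlhe40, Dusp5 and Tgif1, which were singled out after their values were seen. Nr4a1, a nuclear receptor used as a reporter of antigen receptor signalling, was at 4.29 to 20.8 TPM (median 13.8) in CD8 libraries given anti-PD-1 in the CZA+DAV132 arm and at 20.5 to 68.7 TPM in the other groups. In the bulk tumour set, too, that group did not lie wholly below the others. The averaged Nr4a1 interaction was -1.81 ± 0.42 (adjusted p = 0.0313). Bhlhe40, a repressor needed for cytokine output of T cells, was at 19.9 to 72.1 TPM in that group of the CD8 set and 61.8 to 176 TPM in the others. In the bulk tumour set it was at 47.4 to 89 TPM against 67.1 to 236 TPM, and its averaged interaction was -1.70 ± 0.35 (0.014). Dusp5, a nuclear phosphatase of ERK, had -1.75 ± 0.43 (0.0429), but its call held in 23 of 47 alternative settings. Csrnp1, a nuclear protein first described as an AXIN1 target, differed more between the sets, at -1.70 ± 0.45 in the CD8 set and -3.33 ± 0.94 in the bulk tumour set, where 2 CZA isotype libraries were at 0.63 and 0.759 TPM. Its average was -2.51 ± 0.51 (0.014). Plk2, a stress-responsive kinase, had nearly equal interactions of -2.20 ± 0.43 in the CD8 set and -2.15 ± 0.75 in the bulk tumour set, and an averaged one of -2.17 ± 0.45 (0.014). Ppp1r15a (GADD34), which turns off the integrated stress response, had -2.30 ± 0.59 (0.0484), a call that held in 16 of 47 settings, and Tgif1, a repressor of TGF-β target genes, had -1.70 ± 0.42 (0.0386), which held in 32 of 47. Bhlhe40, Csrnp1 and Plk2 each held in 45 of 47 and Nr4a1 in 40, and none of these 7 genes was called without the 3 repeat-rich libraries.

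Other induced genes, also picked after their values were seen, were negative in both sets without passing. Dusp1, a phosphatase of p38 and JNK, had an averaged interaction of -2.01 (limma adjusted p = 0.0698). Per set, CD8 first, the next genes are given with the adjusted p of the average. Junb had -1.72 and -1.37 (0.081), Atf3 -1.56 and -2.86 (0.0868), and Ier2 -1.11 and -1.26 (0.112). Fos, at -1.30 and -1.10 (0.195), Jun, at -1.24 and -0.48 (0.335), and Egr1, at -0.91 and -0.24 (0.463), were smaller in the bulk tumour set. Of the 20 members of the NF-κB and feedback list measured in both sets, 16 were negative in both and 1 was called, Tnfaip3, beside 0.792% of all genes. Nfkbia, the inhibitor IκBα, had -2.01 in the CD8 set and -1.53 in the bulk tumour set (0.069).

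Among T cell receptors and ligands, Ctla4 (chr1:60887000-60915832) passed. It encodes an inhibitory receptor that competes for co-stimulatory ligands. With anti-PD-1 in the CZA+DAV132 arm Ctla4 was at 12.2, 13.2, 33.7, 36.4 and 51 TPM in the CD8 set and at 19.4, 35, 46.3, 48.9 and 67.9 TPM in the bulk tumour set. The other groups held 39.6 to 189 TPM in the CD8 set and 46.7 to 368 TPM in the bulk tumour set, so the ranges overlapped in both. The Ctla4 interaction was -2.09 ± 0.55 in the CD8 set and -2.21 ± 0.67 in the bulk tumour set, and averaged -2.15 ± 0.51 (log2, limma adjusted p = 0.0317), or -1.70 (0.203) with median-ratio scaling. The 8 regulatory T cell markers, of which Ctla4 is one, summed to 118.3 to 356.6 TPM in those CD8 libraries and 343.9 to 710.6 TPM in the other groups, and to 161.4 to 400.2 TPM against 280.1 to 773.3 TPM in the bulk tumour set. Their part in the Ctla4 result was not tested. Pdcd1lg2, which encodes the PD-1 ligand PD-L2 and was singled out after its values were seen, was at 3.3 to 11 TPM in that group of the CD8 set and 13.4 to 32.6 TPM in the others. In the bulk tumour set that group did not lie wholly below the others. The averaged Pdcd1lg2 interaction was -1.97 ± 0.51 (0.0484), and the call held in 13 of 47 alternative settings, with an adjusted p of up to 0.212.

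Most other inhibitory and exhaustion genes did not pass. Of 22 measured, 15 were negative in both sets, 3 positive in both, and 2 called lower, Ctla4 and Cd200r1, beside 0.792% of all genes. The list medians, -0.34 and -0.69, were near those of all genes, and with median-ratio scaling they were 0.08 and -0.26. Pdcd1, the gene of PD-1, had interactions of -0.78 and -1.10 (averaged limma adjusted p = 0.259). Lag3 had -0.63 and -0.87 (0.347), Havcr2, the gene of TIM-3, -0.10 and -0.93 (0.598), and Tox, a regulator of exhaustion, 0.27 and 0.85 (0.349). Cd200r1 belongs to the other pattern: in the bulk tumour set it was listed at 0, 0, 0, 0.543 and 13.7 TPM in the CZA isotype libraries and at 3.83 to 30 TPM in the other groups.

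Effector, cytokine and memory genes leaned negative, as did all genes, without calls apart from Bcl6, beside 0.792% of all genes called lower. Over all genes tested in both sets the medians were -0.38 and -0.48, and 60.7% of genes were negative in both. Cytotoxic effector genes had medians of -0.46 and -0.63 with 17 of 24 negative in both sets. T cell cytokines had medians of -0.66 and -0.86 with 11 of 14 negative in both. With median-ratio scaling the cytotoxic medians were 0.00 and -0.22 and those of the cytokines -0.29 and -0.51. Ifng had -0.90 and -0.86 (averaged limma adjusted p = 0.27), Gzmb -0.65 and -0.58 (0.397), Prf1 -0.13 and -0.15 (0.909), and Csf2, the gene of GM-CSF, -2.07 and -2.05 (0.137). In the stem-like and memory list 15 of 18 were negative in both sets. Tcf7, the gene of TCF1, had -0.64 and -1.09 (0.319), and Slamf6 -0.33 and -1.81 (0.307). Bcl6, a transcriptional repressor characteristic of follicular helper cells, was called at -1.49 ± 0.38 (0.0468) from -0.64 in the CD8 set and -2.34 in the bulk tumour set. Co-stimulatory genes had medians of -0.74 and -0.86. In that list Icos had near-equal interactions of -1.52 and -1.53 (0.097), and Tnfrsf9 (4-1BB) had -0.81 and -1.39 (0.113).

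Genes that define T cells also leaned negative, with none called. Of 18 T cell markers 17 were negative in both sets, with medians of -0.79 and -0.84, and -0.32 and -0.38 after median-ratio scaling. Their summed TPM was 4200 to 14050 in CD8 libraries given anti-PD-1 in the CZA+DAV132 arm and 9313 to 18250 in the other groups. Bulk tumour sums were 4889 to 14330 against 8383 to 16010. Cd3e had interactions of -0.91 and -0.76 (averaged limma adjusted p = 0.246) and Cd8a -0.62 and -0.82 (0.254). Of 24 genes of proximal T cell receptor signalling 23 were negative in both sets, with medians of -0.60 and -0.80. Lat, the adaptor linking the receptor to its effectors, had -1.01 and -1.71 (0.081). The part of T cell content or of repeat share in the results was not tested. Of 7 regulatory T cell markers 4 were negative in both sets, beside 60.7% of all genes, and 1 positive in both, with medians of -0.96 and -1.04. Ctla4, already counted among the inhibitory receptors, was the 1 called, beside 0.792% of all genes. The positive one was Foxp3, at 0.06 and 0.07 (0.937), which was listed at 0 to 3.23 TPM. Macrophage markers did not share the negative lean: 7 of 22 were negative and 8 positive in both sets, with medians of 0.12 and -0.22.

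Interferon-response genes stood above the median of all genes in both sets. The type I interferon list had medians of 0.07 and 0.12, with 9 of 37 members negative and 13 positive in both sets, and the interferon-γ list had 0.02 and 0.01, with 7 of 19 negative and 8 positive. With median-ratio scaling the medians were 0.41 and 0.55 for type I and 0.46 in each set for interferon-γ. None of these genes was called. Cxcl9, a chemokine induced by interferon-γ that draws CXCR3+ T cells, had interactions of 1.37 and 1.11 (averaged limma adjusted p = 0.216). Ifi44 had 1.77 and 1.13 (0.103), and Cd274, the gene of PD-L1, had 0.67 and 0.66 (0.24). The sets disagreed for Ifit2, at -0.03 in the CD8 set and -2.81 in the bulk tumour set, with a difference that was not called (adjusted p = 1.00).

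**Figure D4:**
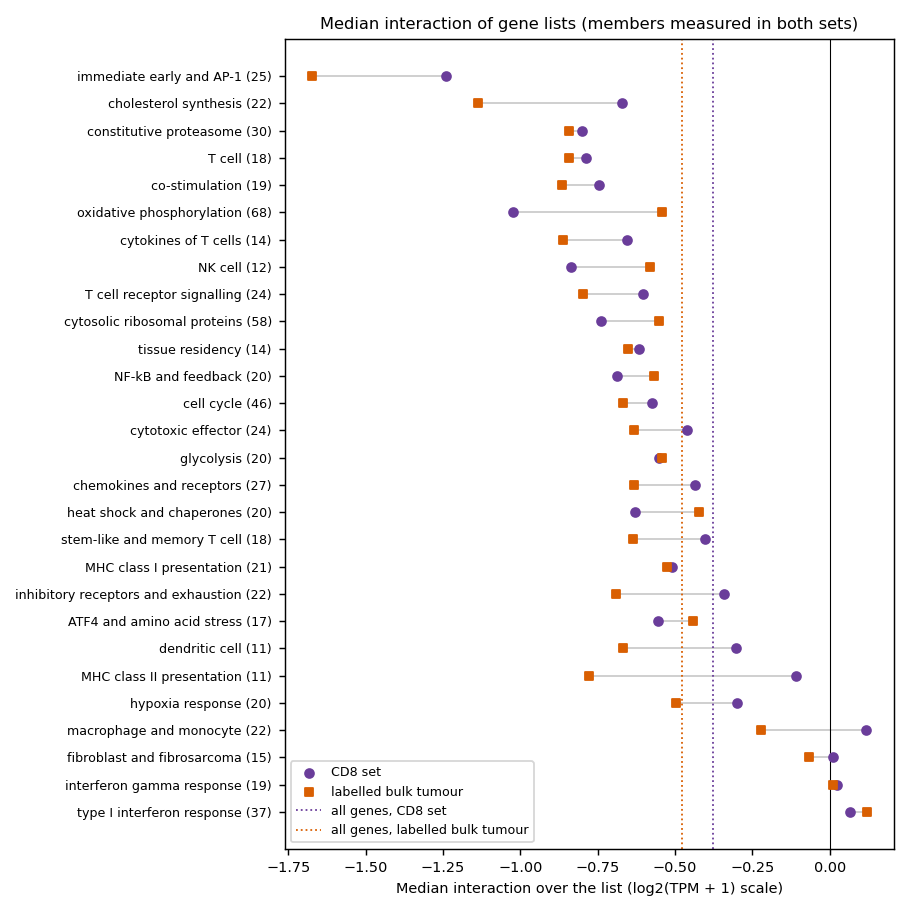
Median interaction over each gene list with 10 or more members measured in both sets (number in brackets), on the log2(TPM + 1) scale, in the CD8 set (circles) and the set labelled bulk tumour (squares). Dotted lines give the median of all genes, -0.38 and -0.48, and immediate early and AP-1 genes are farthest below them.

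Metabolic lists were negative in nearly all members, with medians that depended on scaling. Of 68 oxidative phosphorylation genes 59 were negative in both sets and none was called, with medians of -1.02 and -0.54, or -0.56 and -0.09 after median-ratio scaling. Ndufb8, a subunit of respiratory complex I, had -1.20 and -1.53 (averaged limma adjusted p = 0.062). Of 58 cytosolic ribosomal protein genes 55 were negative in both, with medians of -0.74 and -0.55, or -0.27 and -0.09 after scaling, and none was called. Of 30 constitutive proteasome genes 26 were negative in both, with medians of -0.80 and -0.84, or -0.34 and -0.38 after scaling. Psmb1, a catalytic core subunit, had -1.05 and -1.45 (0.085). Of 22 cholesterol synthesis genes 20 were negative in both, with medians of -0.67 and -1.14, or -0.28 and -0.72 after scaling. Acat2 of that list had -0.72 and -2.75 (0.069).

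Coa7 and Hilpda were called, and their CD8 levels were lower in every anti-PD-1 library of the CZA+DAV132 arm than in all other libraries. Coa7 (chr4:108328140-108341544) encodes an assembly factor of cytochrome oxidase. Its CD8 levels were 1.43, 3.74, 7.47, 7.61 and 8.74 TPM in anti-PD-1 libraries of the CZA+DAV132 arm and 14.6 to 33.2 TPM in all others. Bulk tumour levels in that group were 1.34, 2.8, 4.06, 5.45 and 6.73 TPM against 1.46 to 16.6 TPM, which overlap. The Coa7 averaged interaction was -2.06 ± 0.44 (log2, limma adjusted p = 0.0164), and it was called in 46 of 47 alternative settings. The exception was the one without the 3 repeat-rich libraries, at -1.66 (adjusted p = 0.063).

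Hilpda (chr6:29272488-29275446), a hypoxia-induced inhibitor of lipid breakdown, was at 19.8, 24.8, 40.8, 51.1 and 53.8 TPM in anti-PD-1 libraries of the CZA+DAV132 arm of the CD8 set and at 84.1 to 318 TPM in all others. That group held in bulk tumour 10.1, 10.8, 15.8, 21.4 and 42.5 TPM, the CZA+DAV132 isotype group 24, 25.5, 97.6 and 119 TPM, the CZA anti-PD-1 group 34.8, 44.2, 47.8, 68.4 and 90.5 TPM, and the CZA isotype group 1.24, 3.28, 31.4, 45.2 and 52.7 TPM. Hilpda thus had both low levels under anti-PD-1 with DAV132 and low levels in 2 CZA isotype libraries. Its interaction was -2.24 ± 0.52 in the CD8 set and -3.39 ± 1.09 in the bulk tumour set, and averaged -2.81 ± 0.60 (limma adjusted p = 0.0164), or -2.36 (0.095) with median-ratio scaling. Another hypoxia gene, P4ha2, a collagen prolyl hydroxylase, had the opposite sign, 1.67 ± 0.46 and 1.83 ± 0.66, and was called higher at 1.75 ± 0.44 (0.0468). Of 20 hypoxia genes 12 were negative and 5 positive in both sets.

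The genes with the smallest averaged p were of the second pattern, where the 2 sets differed in the group that was low. Apoo (chrX:94367117-94417093) encodes a subunit of the MICOS complex, which shapes the cristae of mitochondria. In the CD8 set it was at 27.8, 35.7, 36.6, 39.5 and 61 TPM in the CZA isotype group, 23.1, 27.5, 29.3, 34.6 and 40.8 TPM in the CZA anti-PD-1 group, 36.9, 38.8, 47.9, 50.6 and 51.1 TPM in the CZA+DAV132 isotype group, and 8.42, 9.63, 17.8, 18.9 and 23.8 TPM with anti-PD-1 in that arm. Bulk tumour groups in that order were listed at 0, 0, 0, 1.43 and 9.9 TPM, then 15.7, 19.6, 20, 21.6 and 25.1 TPM, then 10.3, 29.6, 44.3 and 53.2 TPM, then 6.52, 7.13, 12.2, 17.9 and 33 TPM. The lowest group was thus CZA+DAV132 anti-PD-1 in the CD8 set and CZA isotype in the bulk tumour set, whose libraries also had the largest shares of genes listed at 0, with a part in the result that was not tested. The Apoo interaction was -1.21 ± 0.38 in the CD8 set and -4.59 ± 0.91 in the bulk tumour set, and averaged -2.90 ± 0.46 (log2, limma adjusted p = 0.0013).

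Mpv17l2 (chr8:70758649-70760946), a protein of the mitochondrial inner membrane that supports the mitochondrial ribosome, repeated this. Bulk tumour levels were 2.18, 2.22, 2.5, 3.73 and 5.14 TPM in the CZA isotype libraries, 12.8, 14, 15, 23.1 and 29.1 TPM with anti-PD-1 in the CZA arm, 22.9, 29.2, 42.4 and 54.1 TPM with isotype in the CZA+DAV132 arm, and 6.76, 7.39, 9.85, 12.2 and 28.1 TPM with anti-PD-1 there. Its CZA isotype libraries lay below all other libraries. CD8 libraries with anti-PD-1 in the CZA+DAV132 arm held 8.47, 10.7, 23.8, 26.2 and 39.3 TPM and the others 23.1 to 66.1 TPM. The averaged Mpv17l2 interaction was -2.47 ± 0.43 (limma adjusted p = 0.0036), and in the bulk tumour set alone it was called at -3.81 ± 0.61 (0.0236).

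**Figure D5:**
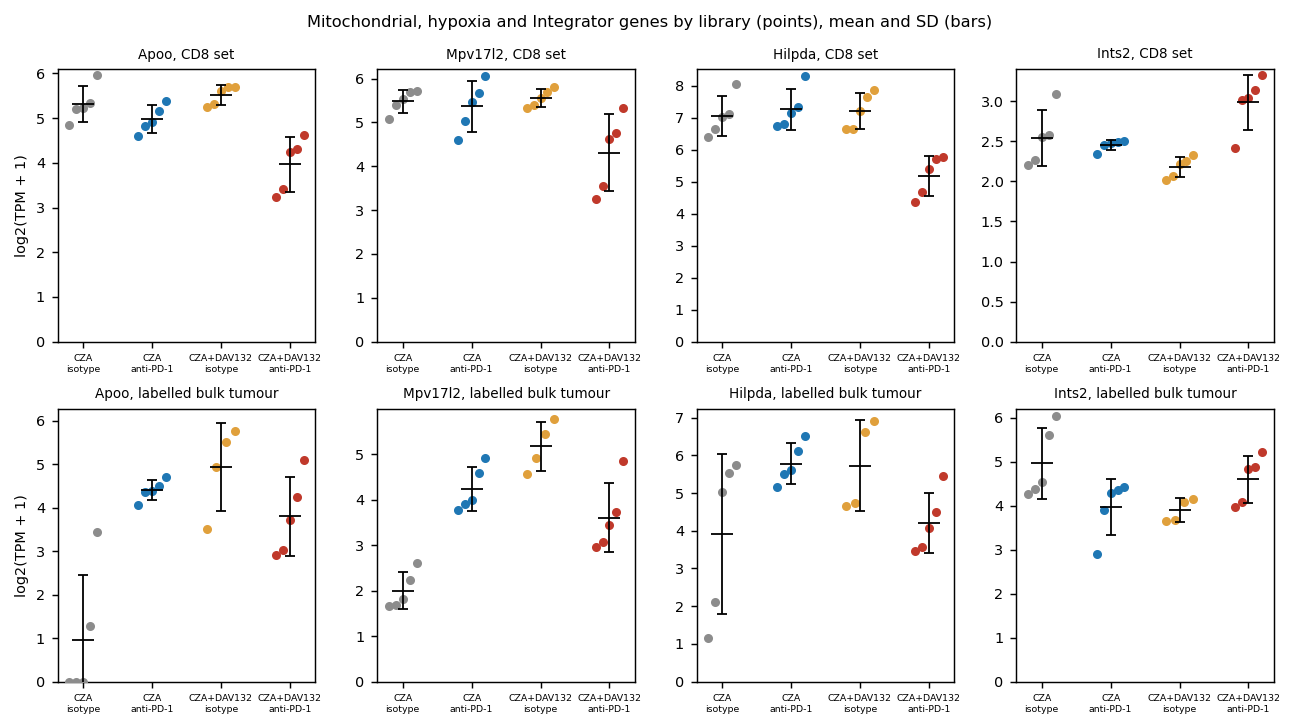
Levels of Apoo, Mpv17l2, Hilpda and Ints2 on the log2(TPM + 1) scale in each library (points, sorted within a group) of the CD8 set (top) and the set labelled bulk tumour (bottom), with the mean and SD of each group. Apoo and Mpv17l2 are lowest in CZA+DAV132 anti-PD-1 in the CD8 set and in CZA isotype in the bulk tumour set.

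Further genes of the named set followed. Rab4a, a GTPase of early endosome recycling, was listed at 0, 0, 0.37, 0.536 and 3.99 TPM in the CZA isotype libraries of the bulk tumour set and at 0.664 to 17 TPM in the others, with an averaged interaction of -2.77 ± 0.44 (limma adjusted p = 0.0013). Mrpl22, a protein of the mitochondrial ribosome, had -2.42 ± 0.43 (0.00469) and Mcub, the dominant-negative subunit of the mitochondrial calcium uniporter, -3.16 ± 0.61 (0.00963). Med7, of the Mediator complex, had -2.39 ± 0.50 (0.0151), Rufy1, an endosomal RAB4 effector, -2.63 ± 0.53 (0.014), and Tmem242 -2.50 ± 0.54 (0.0164). Tstd2 was listed at 0 in all 5 CZA isotype libraries of the bulk tumour set and at 1.15 to 33.1 TPM in the others. Its interaction was -4.40 ± 0.78 there and -0.42 ± 0.43 in the CD8 set, whose groups overlapped. C1qtnf12, a secreted metabolic hormone, had -4.44 ± 1.04 in the bulk tumour set and -0.28 ± 0.47 in the CD8 set.

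Of these, 4 genes were called in each of the 47 alternative settings: Apoo, Rab4a, Mpv17l2 and Mrpl22. They were among 60 followed through the settings, of which 27 were called as deposited. Without CD8 libraries 16 and 19 and bulk tumour library T026 the calls that remained were 6: these 4, Btd and D030056L22Rik. Of the 96 lower and 5 higher calls, 17 were called with median-ratio scaling. The called lower genes had a median transcript length of 2728 bases against 3041 over all tested, and a median GC content of 49.2% against 49.3%.

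Few interactions were called higher. Ints2 (chr11:86210681-86257575), a subunit of the Integrator complex that processes small nuclear RNAs, was at 4.34, 7.07, 7.26, 7.8 and 9.08 TPM in CD8 libraries given anti-PD-1 in the CZA+DAV132 arm and at 3.06, 3.21, 3.67, 3.79 and 4.02 TPM in the isotype group of that arm. In the CZA arm its groups overlapped, at 3.62, 3.81, 4.86, 4.96 and 7.52 TPM with isotype and 4.09, 4.46, 4.57, 4.64 and 4.67 TPM with anti-PD-1. The CZA isotype group of the bulk tumour set was high, at 18.2, 19.7, 22.4, 48.2 and 64.7 TPM, against 6.51 to 20.6 TPM with anti-PD-1 in that arm. The Ints2 averaged interaction was 1.29 ± 0.32 (log2, limma adjusted p = 0.0458), a call that held in 24 of 47 alternative settings. The other called higher genes were P4ha2, Gabra3, Gm14741 and Bahd1, listed after their values were seen. Over 46 settings their calls held in 18, 17, 35 and 23. Gm14741 was highest in the library of largest repeat share in each set, at 20.3 TPM in CD8 library 19 and 41.3 TPM in T026. Gabra3 was highest in library 19 but not in T026, and Bahd1 was highest in neither. The part of repeat share in these calls was not tested. Bahd1, a heterochromatin protein, was at -0.03 ± 0.35 in the CD8 set and 3.20 ± 0.77 in the bulk tumour set. Genes next in order did not pass: Zfp329 at 0.80 and 1.76 (adjusted p = 0.058), Ccne1, the gene of cyclin E1, at 0.89 and 1.43 (0.069), Bfar at 1.89 and 1.15 (0.071), and Acaca, the first enzyme of fatty acid synthesis, at 1.03 and 1.42 (0.089).

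Of 12126 genes, none differed in its interaction between the sets at an adjusted p under 0.05 (0%). At an unadjusted p under 0.05 in limma there were 480, a smaller share than the 0.05 that chance alone would give. Tstd2, Rufy1 and Rab4a, called lower in the averaged fit, were among the genes of smallest p, with more negative interactions in the bulk tumour set. Others were Rrm2b, a p53-induced ribonucleotide reductase subunit, at 0.66 in the CD8 set and -1.84 in the bulk tumour set (limma adjusted p of the difference = 0.292). Mcm10, a replication factor, had -0.07 and -3.74 (0.482), and Uqcrc1, of respiratory complex III, had -0.83 and 2.49 (0.541). Trat1, an adaptor of the T cell receptor, had the smallest p of the named genes in the CD8 set. It was at 0.93, 1.18, 1.92, 2.17 and 3.29 TPM in anti-PD-1 libraries of the CZA+DAV132 arm there and at 4.99 to 18.9 TPM in all others, with an interaction of -1.90 ± 0.35 (adjusted p = 0.18). The bulk tumour interaction was 1.57 ± 1.40 (0.711).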

How the data were processed

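The 39 libraries were grouped by their sample titles. Total RNA was depleted of ribosomal RNA and made into strand-specific libraries, per the labels' protocols. Expression was deposited by the authors as TPM, in a table per set, and kallisto 0.45 and build GRCm38 were used, per the submitters' processing notes. The annotation is not given in the sources used here. Of 28023 symbols, 27815 matched a single GENCODE M21 gene. TPM holds no counts, so depth is unknown, and kallisto splits reads among near-identical transcripts.

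A gene was tested in a set where 4 or more libraries reached 1 TPM. The fit used log2(TPM + 1) in limma 3.58.1 (R 4.3.3), with a mean per group and variances moderated by empirical Bayes with a trend on the mean. Fold differences on this scale understate low genes. P-values were two-sided and Benjamini-Hochberg adjusted over all genes tested. A fit of all libraries, with a weight for each set (1.8 for CD8 and 0.54 for bulk tumour), gave the average of the 2 interactions and their difference. The weights enter the standard errors only, and both sets count equally in the average. Levels were never compared across the tables. The code was tested on simulated data. Lists were described by counts and medians, with no test. The 17 repeat-rich entries are those whose longest transcript is at least 25% satellite or 50% simple repeat.

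By rule, the text draws its genes from the 12 largest called lower and higher averaged interactions with the same sign in both sets and a mean of at least 5 TPM in each, those next by p where fewer passed, the 5 of smallest p per direction in each set and in the difference, and 2 per list. The rule also always included 24 genes, among them Fosl2, Coa7 and Hilpda. Predicted genes, pseudogenes, histones and receptor segments were left out, and genes named after their values were seen are given as such. The members and lists were chosen with earlier results of these data known, and the 24 genes cannot be taken as chosen without them. Alternatives were a pseudocount of 0.1, no filter, a filter at a mean of 5 TPM, median-ratio scaling, rescaling without repeat entries, weights per library, no set weights, each library left out, and CD8 libraries 16 and 19 and T026 left out together.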

Additional observations from a re-analysis of the deposited data

Results flagged for a closer look

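Libraries were compared within their group for repeat share and for 13 genes in the 8 groups, 112 checks in all, of which chance alone flags about 1 in 20, and 5 stood apart. The repeat share was far from the rest of its group in CD8 library 19 (69.1%), in T026 (50.4%) and in T985 (13.7%). Fosl2 was high at 73 TPM in T991 of the CZA isotype group and at 69.6 TPM in T022 of the CZA+DAV132 isotype group, both in the bulk tumour set.

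As deposited, the genes below had a called interaction of arm and anti-PD-1 (limma adjusted p under 0.05). None of the bulk tumour calls remained without T026. Of the averaged calls below, only Apoo, Rab4a, Mpv17l2 and Mrpl22 remained without CD8 libraries 16 and 19 and T026. The averages of Tstd2 and C1qtnf12 came mostly from the bulk tumour set. In the bulk tumour set alone the interactions were -4.48 for Rab4a, -4.4 for Tstd2, -4.14 for D030056L22Rik, -3.97 for Rgs8, -3.85 for Grhpr and -3.8 for Mpv17l2. Averaged over both sets they were -3.16 for Mcub, -2.9 for Apoo, -2.81 for Hilpda, -2.77 for Rab4a, -2.63 for Rufy1, -2.51 for Csrnp1, -2.5 for Tmem242, -2.47 for Mpv17l2, -2.42 for Mrpl22, -2.41 for Tstd2, -2.39 for Med7, -2.36 for C1qtnf12 and 1.29 for Ints2.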

How the results depend on the processing

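The averaged fit called 96 genes lower and 5 higher as deposited. In all it called 52 with no filter, 18 with median-ratio scaling, 36 when rescaled without repeat entries, 6 without CD8 libraries 16 and 19 and T026, and 394 with no weight per set. Leaving out each library gave 35 to 285. It was lower by over 1.5 times without CD8 library 1 (62), 4 (65), 9 (67), 16 (63) or 19 (65), or without T982 (52), T984 (47), T022 (67), T024 (57), T028 (56), T021 (51), T023 (35) or T026 (37). It was higher by over 1.5 times without CD8 library 5 (187), 18 (163) or 20 (279), or without T983 (285), T985 (180), T986 (172) or T991 (209). The causes were not tested.

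In the CD8 set 0 genes were called as deposited, 1 with median-ratio scaling, 1 without repeat entries, 6 with array weights, 1 without the 3 libraries, and 0 to 1 leaving out each library. In the bulk tumour set the 6 calls became 3 with no filter, 3 with the stricter filter, 0 with median-ratio scaling, 1 without repeat entries and 0 without T026. Leaving out each library gave 0 to 18: 14 without T983, 18 without T985, 2 without T989 and 0 without T986, T982, T984, T990, T022, T024, T027, T021, T023 or T026. The difference between sets gave 0 calls, 2 with a pseudocount of 0.1, 1 without repeat entries, 1 without the 3 libraries, and 0 to 1 leaving out each library.

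The same-sign share of 72.8% was 67.1% with no filter, 79.4% with the stricter filter, 60.7% with median-ratio scaling, 58.3% without repeat entries, 63% with array weights, 57.9% without the 3 libraries, and 67.3% to 75% leaving out each library. Of 27 called genes followed, none changed sign in any alternative. No paired analysis was possible because each library has a number of its own.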
